A study of Mus musculus with 12 samples.

Results

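Replicates that carry the same label need not hold cells in the same state. In this series of mouse embryonic stem cells (mESCs) the arrays numbered 3 differed from the arrays numbered 1 of their own group in the same genes, in 3 of the 4 groups. The difference described here is replicate 3 minus replicate 1 within shMsl1_A, within shcontrol_B and within shNsl1_B, which gives 3 pairs from 6 of the 12 arrays. The pairs were selected on the measured signals themselves, which had shown these differences, so every value of this contrast is a description and carries no test. The replicate 2 arrays were not used by the choice and stand beside it. The remaining pair, from shcontrol_A, was left out with the same signals in view, so its smaller differences partly follow from the choice.

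All cells were wild-type male E14.wt mESCs of the 129P2/OlaHsd background, grown with serum and leukaemia inhibitory factor on CD1 feeder cells and then for a single passage on gelatine without them. Every culture carried a lentiviral pLKO.1 vector with a short hairpin RNA (shRNA). In experiment A the shRNA was a non-target control (shcontrol_A) or was directed at Msl1 (shMsl1_A), and in experiment B it was the same control (shcontrol_B) or was directed at Nsl1 (shNsl1_B), with a single clone for each target and 3 arrays in each group. Nsl1 is the study's name for the scaffold of the NSL complex, encoded by Kansl1. Signals are given as log2 values, so that a difference of 1 is a factor of 2, and those of the 3 groups are listed in the order shMsl1_A, shcontrol_B, shNsl1_B. The methods call the replicates independent, whereas the labels do not say that they were separate cultures, so any p-value measures the spread between these arrays.

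The targeted genes were examined first. Msl1, the scaffold of the MSL complex, read 6.77, 9.18 and 7.64 on the arrays labelled shMsl1_A (replicates 1, 2 and 3) and 8.56, 6.90 and 8.62 on those labelled shcontrol_A. The arrays labelled shcontrol_A 2 and shMsl1_A 2 thus went against their labels, and neither belongs to the 3 pairs. Within the shMsl1_A pair Msl1 itself was 0.87 higher on replicate 3. Kansl1 had signals of 9.14, 9.36 and 9.52 on the shcontrol_B arrays and of 8.47, 8.92 and 9.30 on the shNsl1_B arrays, and was higher on replicate 3 in both pairs. In the shMsl1_A and shNsl1_B pairs the level of the target and the replicate number cannot be told apart. The shcontrol_B pair carries no targeting shRNA and had Msl1 signals of 8.84 and 8.79 and Kansl1 signals of 9.14 and 9.52. The part of the target level in the differences was not tested.

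mESCs kept in serum and leukaemia inhibitory factor are a mixture of naive cells, cells that lean towards the primed epiblast and cells that leave the stem cell state. The primed state is marked by factors such as Otx2 and Pou3f1 and by the de novo DNA methyltransferases. Cells that flatten and form epithelial or mesenchymal outgrowths instead make simple keratins, basement membrane and contractile proteins, and often use the transcription factors YAP and TEAD. Because RNA was taken from whole cultures, fewer cells of a type and less RNA per cell cannot be told apart.

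A probe set was taken as a member when it was at least 1 log2 unit apart in the same direction in all 3 pairs. By this rule 1201 of the 41345 probe sets were higher on replicate 3, 2.9% of all, and 97 were lower, 0.235% of all. Among the probe sets with 1 gene symbol, 231 were higher and 66 were lower, and they stand for 227 and 65 genes, which are 1.02% and 0.293% of the 22180 genes with a probe set of their own. The last gene inside the limit was Ahnak2 with a smallest difference of 1.004, and the first outside it was Efna5 with 0.9998. On the lower side these were Sox1 with 1.002 and Plcg2 with 0.9962. A paired limma fit of the 6 arrays, quoted only as a description, called 8750 probe sets, 21.2% of all, of which 5759 (13.9%) were higher and 2991 (7.23%) lower, and all members were among them.

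The pairs were alike in size and pattern. The SD of the differences over all probe sets was 0.55 in shMsl1_A, 0.52 in shcontrol_B and 0.60 in shNsl1_B, against 0.26 in shcontrol_A. A difference of at least 1 in either direction was found for 3092, 2748 and 3844 probe sets in the 3 pairs and for 354 in the shcontrol_A pair. Across all probe sets the differences of the pairs correlated at 0.715, 0.718 and 0.777 with each other, and at 0.211, 0.283 and 0.26 with those of shcontrol_A. These correlations share the array design and the normalization, partly follow from the choice of pairs and are given without a p. The median over probe sets of the difference was -0.01, -0.01 and 0.01, so the typical probe set was hardly apart. The median signal of the array was nevertheless higher on replicate 3 by 0.11, 0.16 and 0.21, and centring each array on it lowered every difference by these amounts and moved the share of higher calls of the paired fit from 65.8% to 40.0%. Quantile normalization of the 6 arrays alone gave 49.4%, and probe sets with 1 symbol alone gave 46.4%. Medians of gene lists are given as deposited, and a sign that turned under another scaling is named beside them.

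Tmprss2, a serine protease of the cell surface made by many epithelia, differed most. Its signals were 5.49, 6.11 and 6.01 on the replicate 1 arrays and 9.62, 9.30 and 9.29 on the replicate 3 arrays. No replicate 1 array came near a replicate 3 array, which largely follows from the choice of members. The mean difference of 3.53 ± 0.52 (SD, n = 3 pairs) is a factor of 11.6. Arrays of the same number were taken to belong together in experiment B, so the shcontrol_B and shNsl1_B pairs may not be independent. Here and below the SD only describes the spread of the 3 pairs. The 3 arrays labelled shcontrol_A read 5.80, 5.75 and 5.74, close to the replicate 1 arrays of the other groups. The promoter of Tmprss2 is shown because it heads the list and because TEAD targets are described further on. These are the 150 bases before the start of the gene on the minus strand of chr16:97611196-97611345 (RefSeq, GRCm38.p6), with the hexamer GGAATG, the core of TEAD sites, in capitals:
Tmprss2: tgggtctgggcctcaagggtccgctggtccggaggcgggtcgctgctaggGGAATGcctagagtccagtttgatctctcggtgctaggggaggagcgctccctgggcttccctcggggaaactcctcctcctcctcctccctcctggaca
The hexamer, searched on both strands over the 250 bases before the start, was present in 12.6% of all 32851 promoters and in 32 of the 209 promoters (15.3%) of genes higher on replicate 3.

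**Figure D1:**
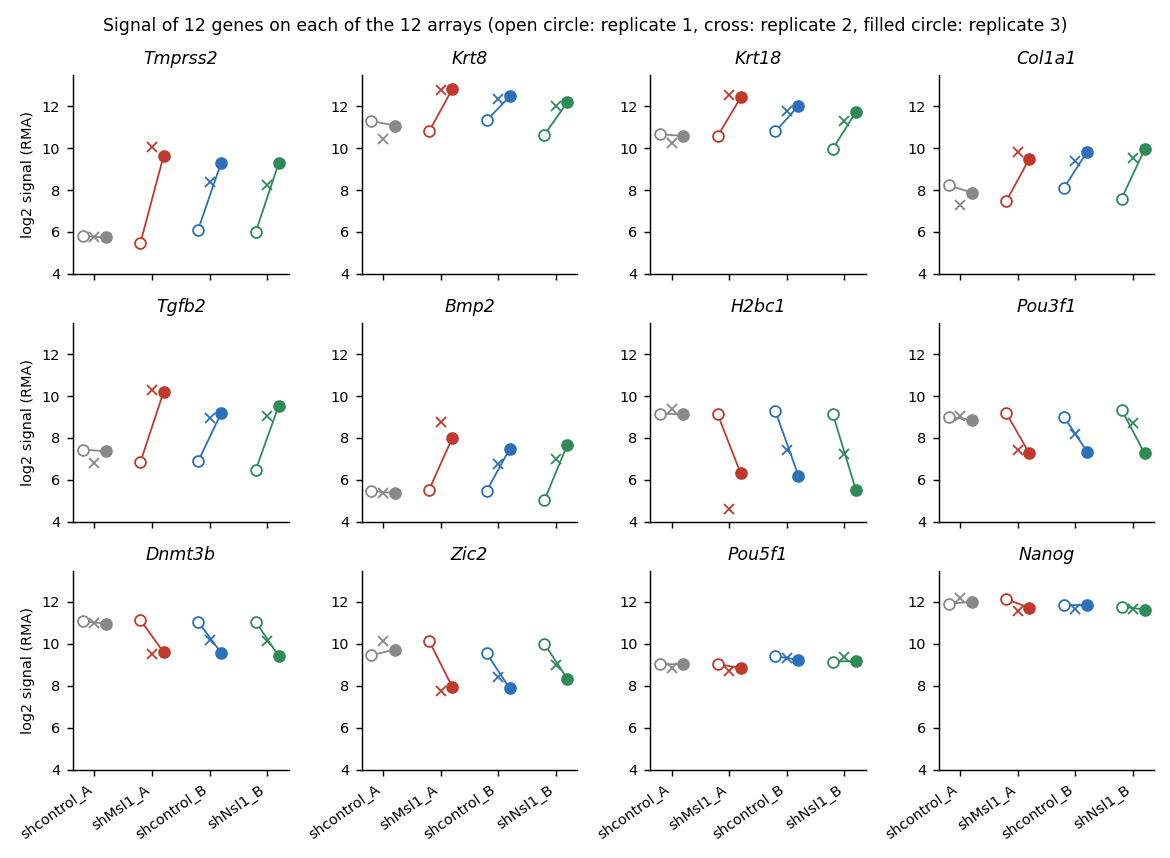
Log2 signal (vertical axis) of 12 genes on each of the 12 arrays, by group (horizontal axis). Open circles are replicate 1, crosses replicate 2 and filled circles replicate 3, and a line joins the pair. In shMsl1_A, shcontrol_B and shNsl1_B the filled circles of Tmprss2 lie between 9.29 and 9.62 and the open ones between 5.49 and 6.11, while the 3 shcontrol_A arrays stay near 5.8 and Pou5f1 and Nanog hardly differ.

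The other genes with the largest smallest-of-3 difference had several kinds of product. Vnn1, a pantetheinase anchored at the cell surface, had signals of 4.57, 4.90 and 5.12 on replicate 1 and of 8.47, 7.67 and 8.07 on replicate 3. Pmp22, a membrane protein best known from myelin, differed by 2.93 ± 0.54 and Wls, the carrier that brings Wnt proteins to the surface, by 2.75 ± 0.37. Among ligands and their helpers, Tgfb2 differed by 2.89 ± 0.54, Csf1 by 2.59 ± 0.59, Bmp2 by 2.37 ± 0.34, Igf2 by 2.17 ± 0.32, and Igfbp4, which binds insulin-like growth factors, by 2.19 ± 0.35 (SD, n = 3 pairs each). Bmp1, a protease that trims procollagens and is no BMP ligand, had signals of 8.42, 8.85 and 8.69 on replicate 1 and of 10.92, 11.05 and 11.29 on replicate 3. The rest of the first 15 were Cd44, the hyaluronan receptor, the protocadherin Pcdh7, the transcriptional co-repressor Atxn1, the transporter Slc22a13b and the nuclear RNA Neat1, which differed by 1.95 to 2.35 on average. For all 15 genes the replicate 1 and replicate 3 arrays did not overlap, which largely follows from the choice of members.

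Some small families with members past 1 log2 unit were followed through all their measured genes, chosen after their values were seen. Of 10 BMP ligands, Bmp2, Bmp4 and Bmp8b were past 1 log2 unit in all pairs, with Bmp4 at 9.78, 9.63 and 9.34 on replicate 1 and at 10.98, 10.65 and 10.76 on replicate 3. The median over the 10 ligands was 0.04, since Bmp7, Bmp6, Bmp5 and others were little apart. Of 11 annexins, which bind membranes in a calcium-dependent way, 6 were higher in all pairs and Anxa1, Anxa2 and Anxa5 by at least 1 log2 unit, with a median of 0.41 over the family. Of 15 desmosome genes Dsp, Dsc2 and Dsg2 were past that limit as well, while the 4 plakophilins and Jup differed by -0.05 to 0.27 on average. Of the 4 TIMPs, inhibitors of matrix proteases, Timp2 differed by 2.02, Timp3 by 1.93 and Timp1 by 0.77, and Timp4 by -0.34.

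Simple epithelial keratins and junction proteins were among the most different groups. Of 21 measured genes 14 were higher in all pairs and 1, the splicing factor Esrp1, was lower, with a median of 0.57 beside -0.05 over all genes, of which 22% were higher and 32.9% lower in all pairs. Krt8 had signals of 10.79, 11.32 and 10.63 on replicate 1 and of 12.79, 12.46 and 12.18 on replicate 3. Its partner Krt18 had 10.57, 10.79 and 9.97 on replicate 1 and 12.41, 12 and 11.73 on replicate 3. Both keratins, which form the filaments of simple epithelia, differed by 1.56 ± 0.43 and 1.60 ± 0.34. Dsp, the plaque protein of desmosomes, differed by 1.80 ± 0.48, and Cldn4, a claudin of tight junctions, by 1.39 ± 0.09. Cdh1, the cadherin of epithelia and stem cells, was already at 11.67, 11.46 and 11.35 on replicate 1 and differed by 0.55 ± 0.25.

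Factors of the trophectoderm, the outer epithelium of the blastocyst, moved less. Of 14 genes 7 were higher and 2 lower in all pairs, with a median of 0.30, or 0.14 when the arrays were centred. Hand1, a factor of trophoblast giant cells and of lateral mesoderm, had signals of 6.65, 6.36 and 6.34 on replicate 1 and of 8.25, 8.34 and 8.19 on replicate 3. Cdx2 differed by 0.64 ± 0.23, and Elf5, which marks trophoblast stem cells, stayed between 3.98 and 4.31 on the 6 arrays and below the array median on all 12. Tfap2c and Ascl2 were lower on replicate 3 in every pair. Of the 15 genes listed as serine proteases with their receptors and inhibitors, 10 were higher in all pairs (median 0.23). Besides Tmprss2 they included Plat and Plau, the plasminogen activators, with differences of 1.64 ± 0.09 and 1.31 ± 0.18, and the urokinase receptor Plaur with 1.06 ± 0.18.

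Matrix genes stood higher as a group. Of 18 basement membrane genes 15 were higher in all pairs and 0 lower, with a median of 0.74. Nid1, which links laminin to collagen IV, had signals of 9.89, 9.67 and 9.63 on replicate 1 and of 11.05, 11.05 and 11.53 on replicate 3. The collagen IV chains Col4a1 and Col4a2 differed by 1.22 ± 0.42 and 1.33 ± 0.24. Of 24 genes for collagen processing and the secretory pathway 16 were higher and 1 lower (median 0.51), among them the lysyl hydroxylase Plod2 by 1.71 ± 0.16 and the collagen chaperone Serpinh1 by 1.54 ± 0.23. Of 24 TGF-beta and EMT genes 19 were higher and 1, the repressor Skil, lower, with the highest median of the 34 lists at 0.92. Besides Tgfb2 and Bmp1 this list held the integrin chain Itgav, which differed by 1.64 ± 0.14, and Cdh2, the neural and mesenchymal cadherin, which differed by 1.58 ± 0.56.

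Many contractile and YAP target genes were also higher. Of 25 contractile genes and SRF targets 14 were higher and 2, Srf itself and Myl9, lower in all pairs (median 0.53). Acta2, the actin of smooth muscle, had signals of 10.89, 11.27 and 10.59 on replicate 1 and of 12.33, 11.76 and 12.19 on replicate 3, and Cald1 differed by 1.43 ± 0.46. Of the 6 markers of smooth muscle only Acta2 and Tagln were higher in all pairs. Cnn1 differed by 1.46, -0.28 and 0.0, Actg2 by 0.12, -0.29 and 0.0, and Des by -0.58, 0.13 and 0.75. Of 22 YAP and TEAD targets 17 were higher and 2, Ajuba and Fjx1, lower (median 0.68). After Tgfb2 the largest were F3, the tissue factor that starts coagulation, at 2.18 ± 0.46, the receptor kinase Axl at 1.71 ± 0.23 and Crim1 at 1.97 ± 0.60. Ccn1 and Ccn2, the targets most often used as readouts of YAP, differed by 1.24 ± 0.54 and 0.54 ± 0.40. Immediate early genes went both ways, with 9 of 19 higher and 8 lower in all pairs, Fosl2 at 1.35 ± 0.53 and Egr1 at -1.13 ± 0.55.

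Fibroblast markers moved with these groups. The cultures had been grown on feeder fibroblasts, and 18 of the 31 fibroblast markers were higher and 4 lower in all pairs, with a median of 0.39. The mean level of the list lay between 6.22 and 6.43 on the replicate 1 arrays and between 6.66 and 7.02 on the replicate 3 arrays. Col1a1, a chain of collagen I, had signals of 7.47, 8.10 and 7.59 on replicate 1 and of 9.49, 9.81 and 9.93 on replicate 3. Pdgfrb, the receptor of mesenchymal cells, differed by 1.73 ± 0.70 and Col5a1 by 1.53 ± 0.22. Postn, a matrix protein of fibroblasts, differed unequally, from 4.09 to 4.66 in shMsl1_A, from 5.70 to 7.68 in shcontrol_B and from 6.04 to 9.24 in shNsl1_B. Col1a2 differed by 0.64, 0.9 and 0.67, Col3a1 by 0.31, 0.47 and 1.04, and Twist2 by 0.51, 0.28 and 0.18. Prrx1 differed by -0.13, -0.17 and 0.54. Lum and Dcn stayed between 3.4 and 3.63 and between 5.09 and 5.65 on the 6 arrays. Lum lay below the array median on all 12 arrays and Dcn on 11. Thy1 was lower on replicate 3 in 2 of 3 pairs, with 7.36, 6.96 and 6.55 on replicate 1 and 7.25, 6.65 and 6.91 on replicate 3. The part of fibroblast RNA in the matrix, contractile and TGF-beta genes above was not tested.

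**Figure D2:**
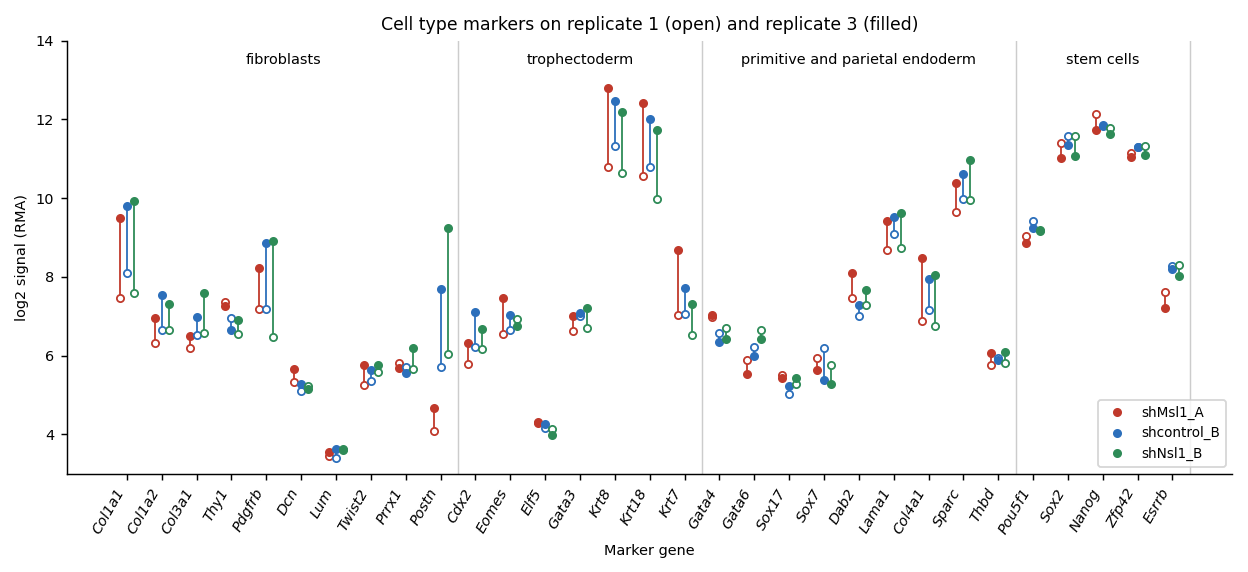
Log2 signal (vertical axis) of marker genes of fibroblasts, trophectoderm, primitive and parietal endoderm and stem cells (horizontal axis) on replicate 1 (open circles) and replicate 3 (filled circles) of the 3 groups. Krt8, Krt18, Col1a1 and Pdgfrb are apart in all groups, whereas Lum and Elf5 stay below 4.5 on all 6 arrays and Pou5f1 between 8.85 and 9.42.

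Markers of other lineages gave no common direction. Of 22 genes of primitive and parietal endoderm 10 were higher and 6 lower in all pairs, with a median of 0.14 that turned to -0.02 when each array was centred on its median and to -0.017 when the 6 arrays were quantile-normalized again. The higher ones included the matrix genes Col4a1, Lama1 and Sparc, and Dab2, which differed by 0.65, 0.27 and 0.39. The factors Gata6 and Sox7 were lower in all pairs, while Gata4 differed by 0.04, -0.23 and -0.28 and Thbd by 0.31, -0.05 and 0.27. Sox17 was at 5.51, 5.01 and 5.27 on replicate 1 and at 5.43, 5.23 and 5.44 on replicate 3. Of 18 visceral endoderm genes 2 were higher and 9 lower (median -0.16), and Afp lay below the array median on 11 of the 12 arrays. Of 22 genes of primitive streak and mesoderm 7 were higher and 7 lower (median -0.01), with Mixl1 at 1.58 in shMsl1_A and at 0.30 and 0.26 in the other pairs. Among 26 blood, endothelial and macrophage markers (median -0.07) Ptprc, the common leukocyte antigen, stayed below the array median on all 12 arrays, and Runx1, which is also made outside blood, was higher by 1.5 ± 0.12.

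Genes of the primed epiblast were the most different group on the lower side. Of 18 genes 14 were lower and 1, Nodal, higher in all pairs, with a median of -1.17. Pou3f1, a POU factor of the primed epiblast and of neural progenitors, had signals of 9.18, 9.02 and 9.35 on replicate 1 and of 7.27, 7.35 and 7.27 on replicate 3. Otx2, which drives the entry into the primed state, had 8.08, 8.64 and 8.85 on replicate 1 and 6.77, 6.76 and 7.11 on replicate 3. The 2 sets of arrays did not overlap for either factor, which largely follows from the choice of members. Of the Zic factors, Zic2 differed by -1.84 ± 0.29 and Zic5 by -1.23, while Zic1 and Zic4 were near -0.14 and -0.24. Pim2, a kinase, differed by -1.89 ± 0.32, and Tcf15, a basic helix-loop-helix factor that primes pluripotent cells for somatic fates, by -1.85 ± 0.38.

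All 4 DNA methyltransferase genes were lower on replicate 3. Dnmt3b, a de novo enzyme, had signals of 11.14, 11.06 and 11.06 on replicate 1 and of 9.61, 9.58 and 9.41 on replicate 3, a difference of -1.55 ± 0.09. Dnmt3a differed by -1.11 ± 0.12, their cofactor Dnmt3l by -0.91, and the maintenance enzyme Dnmt1 by -0.23. In the shcontrol_A pair these 4 genes differed by -0.13, -0.07, -0.15 and -0.19.

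The pluripotency network moved in part. Of 31 core and naive genes 17 were lower and 4 higher in all pairs (median -0.26). Pou5f1 had signals of 9.05, 9.42 and 9.16 on replicate 1 and of 8.85, 9.25 and 9.19 on replicate 3, and Nanog of 12.13, 11.84 and 11.78 against 11.73, 11.86 and 11.64. The arrays of both replicates overlapped for these factors, and Sox2 differed by -0.37 ± 0.14. Utf1, a chromatin factor of stem cells, was at 12.70, 12.05 and 11.88 on replicate 1 and at 11.05, 10.74 and 10.51 on replicate 3, and Gbx2 differed by -1.36 ± 0.23. Of 24 neural progenitor genes 12 were lower and 2 higher (median -0.16), with Pax6 at -1.07 ± 0.03 and Sox1 at -1.29 ± 0.25. Germline and meiosis genes were lower in 16 and higher in 1 of 23 (median -0.30), led by the Piwi protein Piwil2. The 2-cell-like genes had pair medians of -0.42, -0.04 and 0.10.

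Histone genes formed the next group. Replication-dependent histone genes lie in clusters, are transcribed in S phase and give messages without a poly(A) tail, and many are nearly identical, so signals of single genes are uncertain. Of 22 measured 21 were lower in all pairs and 0 higher, 7 of them by at least 1 log2 unit, with a median of -0.76. H2bc12 had signals of 12.12, 10.39 and 10.40 on replicate 1 and of 9.04, 9.0 and 8.25 on replicate 3, and H2bc14 had 8.11, 7.59 and 7.77 against 6.84, 6.32 and 6.16. H2bc1 and H2ac1, a pair of variants known from testis, were lower as well. H2bc1 was the gene furthest down of all, with 9.12, 9.29 and 9.12 on replicate 1 and 6.31, 6.21 and 5.51 on replicate 3, a difference of -3.17 ± 0.41. H2ac1 had 12.11, 11.93 and 11.87 against 9.88, 10.72 and 10.07.

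Promoters of 3 of these genes are shown because the octamer ATTTGCAT, the site of POU factors of the Oct family and an element of H2B promoters, lies in them. Each is 130 bases before the start on the plus strand (RefSeq, GRCm38.p6), H2bc12 at chr13:22035691-22035820, H2bc14 at chr13:21721914-21722043 and H2ac1 at chr13:23934307-23934436, with the octamer or its reverse complement in capitals:
H2bc12: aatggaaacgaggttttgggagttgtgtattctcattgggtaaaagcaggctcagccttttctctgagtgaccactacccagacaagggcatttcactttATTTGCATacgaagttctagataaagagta
H2bc14: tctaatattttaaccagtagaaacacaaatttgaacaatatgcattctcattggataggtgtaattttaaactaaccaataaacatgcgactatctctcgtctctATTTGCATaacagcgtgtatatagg
H2ac1: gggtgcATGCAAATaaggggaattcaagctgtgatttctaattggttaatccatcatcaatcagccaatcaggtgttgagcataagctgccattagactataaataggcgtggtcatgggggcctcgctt
The octamer starts 30, 25 and 124 bases before the start of H2bc12, H2bc14 and H2ac1. Over the 250 bases before the start and on both strands it was present in 526 of all 32851 promoters (1.6%), in 6 of 20 promoters of the histone list (30.0%), in 8 of 74 promoters of genes lower on replicate 3 (10.8%) and in 3 of 209 of genes higher. The lower genes include 7 of the histone list, so the shares of these groups are not separate. The AP-1 motif TGANTCA was found in 6.75% of all promoters and in 14 of the 209 (6.7%). The octamer can overlap the TEAD hexamer read on the other strand, and a match describes letters only.

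Genes of DNA replication and of ribosomes were mostly lower. Of 36 DNA replication genes 31 were lower and 0 higher (median -0.47), with the licensing factor Cdt1 at 11.42, 11.13 and 11.28 on replicate 1 and at 10.40, 10.24 and 10.16 on replicate 3. Mitosis genes were split, 17 of 29 lower and 4 higher (median -0.24), and 3 of the higher ones, Mki67, Cenpe and Cenpf, which encode very large proteins, were higher in the shcontrol_A pair as well, by 0.37, 0.90 and 0.56. Of 68 mitochondrial ribosomal protein genes 58 were lower and 1 higher (median -0.50), and of 59 cytosolic ones 41 were lower and 4 higher (median -0.28). Of 26 glutathione genes and Nrf2 targets 15 were lower and 1 higher (median -0.37), with Hmox1, the haem oxygenase, at -0.93 ± 0.30 and Gstp1 at -1.01 ± 0.34. Glycolysis genes (17 of 28 lower, 7 higher, median -0.29) and ATF4 targets (13 of 27 lower, 7 higher, median -0.16) went both ways, the lower ones led by Pfkm and by Chac1. Without the shMsl1_A pair the median of the ATF4 targets was -0.01.

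Lysosomal genes went the other way. Of 42 measured 34 were higher and 1, the proton pump subunit Atp6v0d1, lower in all pairs (median 0.46). Lamp2, a protein of the lysosomal membrane, had signals of 8.60, 8.22 and 8.75 on replicate 1 and of 9.71, 9.52 and 9.89 on replicate 3, and the cathepsin Ctsb differed by 1.15 ± 0.22. Of 25 p53 targets 12 were higher and 8 lower (median 0.37), the pair medians lying at 0.64, 0.29 and -0.02. Cdkn1a, the inhibitor of cyclin-dependent kinases, differed by 0.61 ± 0.16. Of 26 imprinted genes 13 were higher and 4 lower (median 0.18), with Igf2, Zim1 and Peg3 the furthest up on average and the growth inhibitor Cdkn1c at -1.09 ± 0.49. Centring brought this median to 0.02. Interferon and antigen presentation genes had a median of 0.10, which turned to -0.06 with centred arrays and to -0.04 after a second quantile normalization, with B2m, the light chain of MHC class I, at 1.39 ± 0.38. The cholesterol genes had a median of 0.11, which turned to -0.045 when the arrays were centred, and retinoic acid and Hox genes one of -0.12, with Cyp26a1 at 1.48 ± 0.71 and Crabp2 at -1.40 ± 0.08. The 12 genes of the MSL and NSL complexes had a median of -0.02, with 4 higher and 5 lower in all pairs.

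**Figure D3:**
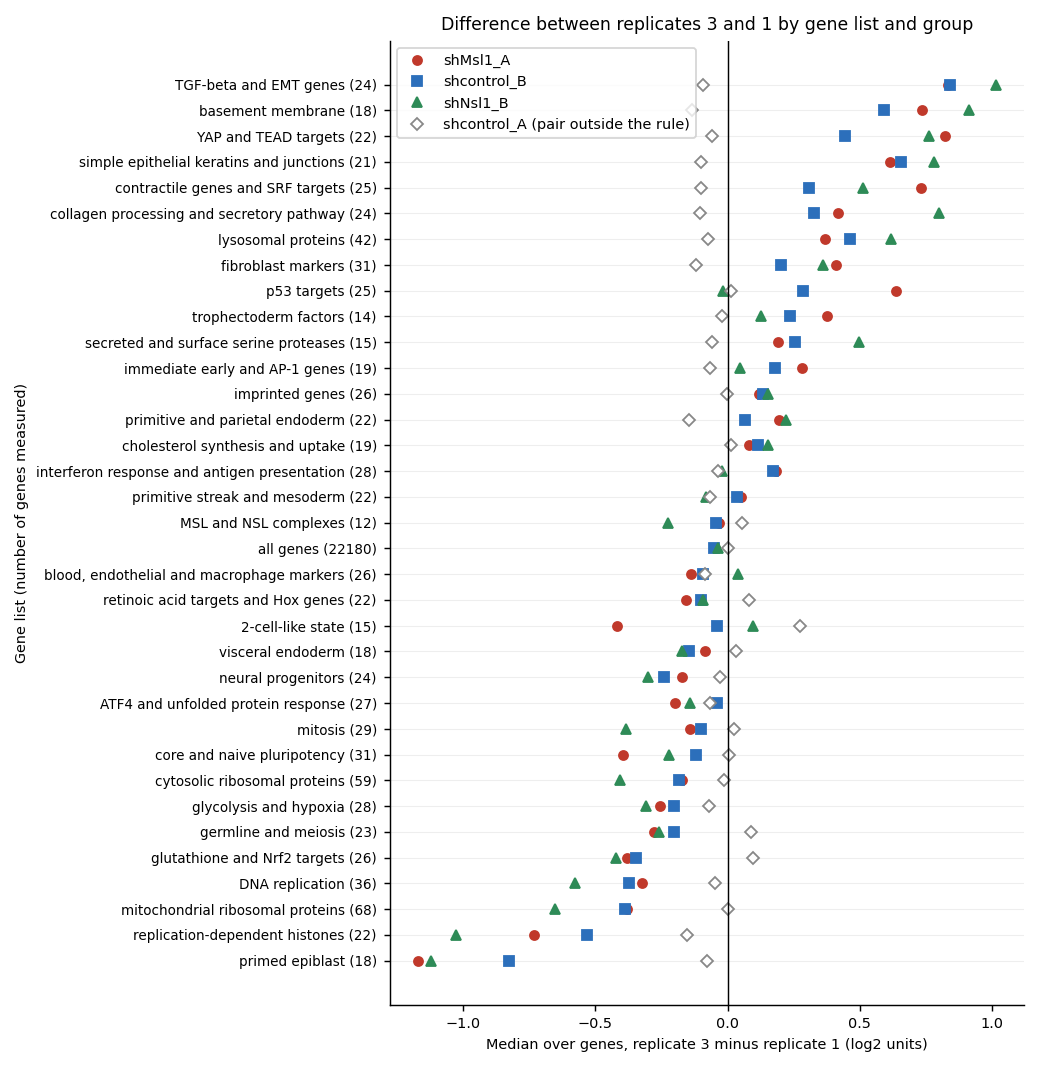
Median over the genes of each list of the difference between replicate 3 and replicate 1 in log2 units (horizontal axis) for the 3 pairs (filled symbols) and the shcontrol_A pair (open diamonds), with the number of genes measured in brackets. TGF-beta and EMT genes lie at 0.83, 0.84 and 1.01 and primed epiblast genes at -1.17, -0.83 and -1.12 in the 3 pairs, against -0.09 and -0.08 in shcontrol_A.

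Probe sets without a gene symbol also differed. The median over these probe sets of the difference was 0.06, 0.08 and 0.11 in the 3 pairs and 0.03 in the shcontrol_A pair, against -0.05, -0.05 and -0.04 in the 3 pairs for probe sets with 1 symbol. Their median signal on an array was higher on replicate 3 by 0.28, 0.32 and 0.38 in the 3 pairs and by 0.06 in shcontrol_A. Of the 1201 higher probe sets 957 had no symbol, which is 5.98% of the 16004 such probe sets. The annotation used here does not say what these probe sets measure, and the part of RNA quality or unspliced RNA in them was not tested.

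The replicate 2 arrays were not used by the choice, although their difference to replicate 1 shares the replicate 1 arrays with it. The 231 higher probe sets had median signals of 7.04, 7.17 and 7.15 on replicate 1, of 9.04, 8.31 and 8.47 on replicate 2 and of 8.74, 8.74 and 8.89 on replicate 3. For the 66 lower probe sets these medians were 8.83, 8.80 and 8.95, then 7.28, 7.74 and 7.87, then 7.29, 7.14 and 7.19. Replicate 2 thus lay at the level of replicate 3 on the array labelled shMsl1_A 2, which had a high Msl1 signal, and between both replicates in experiment B. The median share of the distance from replicate 1 to replicate 3 was 1.1, 0.745 and 0.740 for the higher and 1.03, 0.671 and 0.615 for the lower probe sets. All 231 and all 66 were on the replicate 3 side of replicate 1 on all 3 arrays, which partly follows from the shared replicate 1 arrays. How often this held over all probe sets was not counted.

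At the median of the members, the 3 arrays labelled shcontrol_A stayed at the level of the replicate 1 arrays. Their medians were 7.22, 7.13 and 7.39 for the higher and 8.77, 8.97 and 8.65 for the lower probe sets, outside the range of the replicate 2 and 3 arrays of the other groups. In the shcontrol_A pair the higher set differed by 0.05 at the median, with 141 of 231 in the same direction, and the lower set by -0.03, with 41 of 66. The same shares over all probe sets were not counted. Some members did move, such as Atrx at 8.2, 9.31 and 9.22 and Ccdc88a at 7.22, 8.3 and 8.29 on the shcontrol_A arrays. Of the 1201 higher probe sets 116 were past the limit in the shcontrol_A pair as well, and of the 97 lower ones 0. Within a group the lowest correlation of signals was between replicates 1 and 3 of shNsl1_B (0.9645), and replicates 2 and 3 of shMsl1_A were the closest (0.9946).

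**Figure D4:**
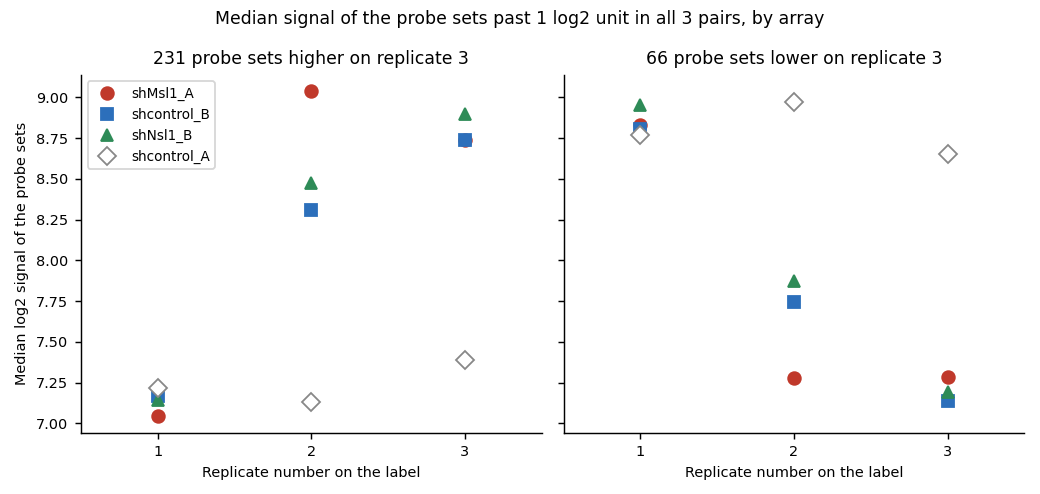
Median log2 signal (vertical axis) of the 231 higher (left) and 66 lower (right) probe sets on each array, by the replicate number on its label (horizontal axis). The replicate 1 arrays and all shcontrol_A arrays lie between 7.04 and 7.39 on the left, and the other replicate 2 and 3 arrays between 8.31 and 9.04.

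The difference between shNsl1_B and shcontrol_B is a comparison that the choice of pairs did not use, since each replicate number occurs once in each group. The 231 higher probe sets had a median difference of 0.09 and the 66 lower ones of 0.09, and limma called 0 of the 41345 probe sets at an adjusted p of 0.05 (0% of all), with a smallest adjusted p of 0.163. At an unadjusted p of 0.05 limma gave 2175 probe sets, 1.83% of all as higher and 3.43% as lower, and 0 of the 231 and 0 of the 66 members, whose median SE was 0.524 and 0.482 against 0.129 for all probe sets with 1 symbol. The choice of members made this SE large, since they differ between replicates within both groups, so these counts of 0 say nothing about the Nsl1 shRNA.

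With the replicate number as a block the median SE of the higher and lower members was 0.109 and 0.101. This block assumes that arrays of the same number belong together, which the labels do not state. The blocked limma fit again called 0 probe sets, with a smallest adjusted p of 0.0845, and gave 6146 at an unadjusted p of 0.05, 6.91% of all as higher and 7.96% as lower in shNsl1_B. Of the 231 higher members 54 were higher and 28 lower at that p, and of the 66 lower members 16 were higher and 8 lower. This makes 35.5% and 36.4%, beside 16.4% of all probe sets with 1 symbol. The members were not matched to those probe sets in signal. On shcontrol_B 1 the medians of the higher and lower members were 7.17 and 8.80, against 6.11. The larger share is therefore not read as a result about the members. Ripply1, a co-repressor of T-box factors, had signals of 7.71, 6.40 and 5.38 on the shcontrol_B arrays 1, 2 and 3 and of 9.05, 7.41 and 6.45 on the shNsl1_B arrays. It was higher in shNsl1_B in 3 of 3 pairs, by 1.14 ± 0.10 (SE, limma with the block, adjusted p = 0.0865). Axl went the other way, with 8.23, 9.67 and 9.71 in shcontrol_B and 7.14, 8.74 and 8.85 in shNsl1_B, a difference of -0.96 (limma with the block, adjusted p = 0.0865). For Tmprss2 the difference was -0.09 ± 0.08 with an adjusted p of 0.704 in the blocked limma fit.

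**Figure D5:**
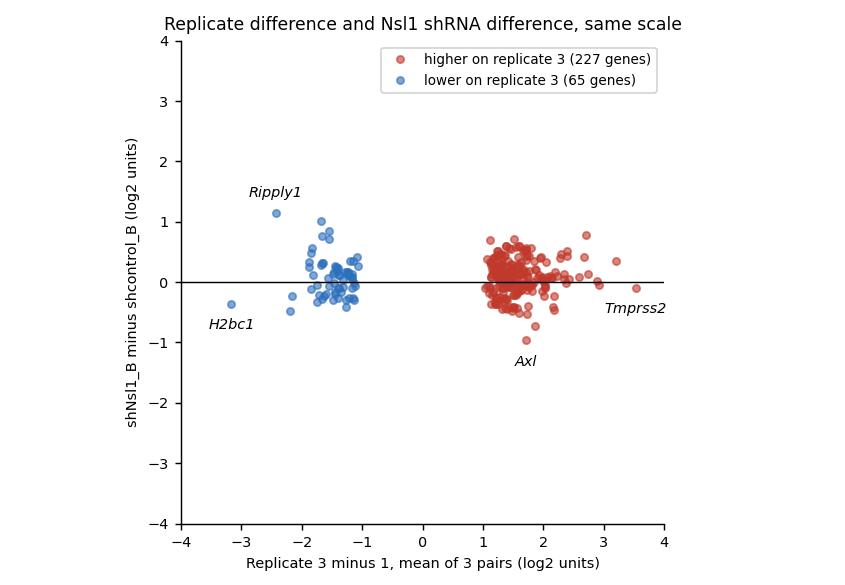
Difference between shNsl1_B and shcontrol_B (vertical axis) against the mean difference between replicates 3 and 1 (horizontal axis), both in log2 units on the same scale, for the 227 genes higher and the 65 lower on replicate 3. Each point is a gene. The gap along the horizontal axis is made by the choice of genes. Ripply1 at 1.14 and Axl at -0.96 lie far out on the vertical axis, and Tmprss2 is at -0.09.

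The difference between shMsl1_A and shcontrol_A shares the arrays shMsl1_A 1 and 3 with the 3 pairs. Its values and counts are therefore given as a description and not as a test. As labelled, the 231 higher probe sets had a median difference of 0.97, with 230 higher in shMsl1_A, and the 66 lower ones had -0.93, with all 66 lower. Over all 23521 probe sets with 1 symbol the median was -0.02, with 10494 higher and 13027 lower. The split of the members partly follows from their choice, in which the arrays shMsl1_A 1 and 3 took part. In all, limma called 0 probe sets in this comparison (smallest adjusted p = 0.622) and gave 3163 at an unadjusted p of 0.05, 4.73% of all as higher and 2.92% as lower. Without the array labelled shMsl1_A 1, the remaining shMsl1_A arrays being replicates 2 and 3, limma called 6771. Both remaining arrays lay at the replicate 3 level of the members, so this count partly restates the replicate difference. It does not measure the Msl1 shRNA, since the Msl1 signals of shMsl1_A 2 and shcontrol_A 2 went against their labels.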

How the data were processed

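RNA from mESCs was hybridised to Affymetrix Mouse Gene 2.0 ST arrays. The authors made the deposited log2 signals with robust multi-array average (RMA) in Affymetrix Expression Console 1.1, per the submitters' processing notes, which includes quantile normalization. This can hide changes in total RNA. All 41345 probe sets were used as deposited. Of these 23521 had 1 gene symbol in the platform annotation, 1820 several and 16004 none. No source used here names its genome build. A gene was given by its probe set with the highest mean. Promoters came from RefSeq (GRCm38.p6).

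Fits used limma 3.58.1 in R 4.3.3 with p-values adjusted over the whole table (Benjamini-Hochberg, limit 0.05), and were tested on simulated data. The paired fit had the group as a block and 2 residual degrees of freedom before moderation. The members and the 34 gene lists (965 genes, 842 measured) were chosen with earlier results of these data known. Named genes were the 15 per direction with the largest smallest-of-3 difference (without provisional gene models and small RNAs), the extremes of each list, the markers, the targets and whole families. Any other gene was chosen after its values were seen. Arrays that share a number deviated from their group means with correlations of 0.767, 0.326 and 0.704 in experiment B. In experiment A these were 0.0451, -0.226 and 0.21. The numbers were taken to pair the arrays in experiment B and not in experiment A. The correlations in experiment B partly follow from the choice of pairs, which share a replicate difference, so they cannot show that the arrays were paired. Alternatives changed the pairs used, the scaling, the filter on dim probe sets (mean log2 of 6), the probe sets tested, the size limit and the blocks. The number of arrays limits the precision.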

Additional observations from a re-analysis of the deposited data

Results flagged for a closer look

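In the shcontrol_A pair the median of 21 of the 34 gene lists had the opposite sign to that in the other 3 pairs. Lists whose 3 pair medians differed in sign could not enter this count. The median over all genes turned as well, with -0.047, -0.052 and -0.036 in the 3 pairs and 0.003 in shcontrol_A. The difference between shcontrol_A and the other pairs was not tested, and 1 pair has no replicate. This pair was left out by a choice made on the signals, so its contrast with the other 3 partly follows from that choice. Of the lists that were higher in the 3 pairs, the shcontrol_A medians were -0.146 for primitive and parietal endoderm, -0.134 for basement membrane, -0.119 for fibroblast markers, -0.104 for collagen processing, -0.101 for keratins and junctions, -0.099 for contractile genes and -0.094 for TGF-beta and EMT genes. They were -0.073 for lysosomal proteins, -0.068 for immediate early genes, -0.06 for YAP and TEAD targets, -0.058 for serine proteases, -0.02 for trophectoderm factors and -0.002 for imprinted genes. Of the lists that were lower in the 3 pairs, they were 0.097 for glutathione genes, 0.09 for germline genes, 0.079 for retinoic acid and Hox genes, 0.055 for MSL and NSL complexes, 0.031 for visceral endoderm, 0.024 for mitosis, 0.006 for core and naive pluripotency and 0.003 for mitochondrial ribosomal proteins.

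The median signal of the probe sets without a gene symbol, which enter no gene list, was higher on the replicate 3 array than on the replicate 1 array by 0.284, 0.317 and 0.375 in shMsl1_A, shcontrol_B and shNsl1_B, against 0.055 in the shcontrol_A pair. The median of the differences of single probe sets was smaller, 0.061, 0.076 and 0.115. Their source was not tested.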

How the results depend on the processing

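The paired limma count of 8750 ranged from 3584 (without the shcontrol_B pair) to 6741 when 1 pair was left out, with 5224 without the shNsl1_B pair. It was 46 with the shcontrol_A pair added as the 4th, 5660 over probe sets with 1 symbol and 4856 without the group block. The higher set (1201) ranged from 1446 to 1736 with 1 pair left out, and was 116 with the shcontrol_A pair, 231 with 1 symbol and 3555 at a limit of 0.5. The lower set (97) ranged from 127 to 203, the latter without the shcontrol_B pair, and was 0 with the shcontrol_A pair, 174 after median centring, 159 after quantile normalization of the 6 arrays and 998 at a limit of 0.5. For shNsl1_B against shcontrol_B limma called 0 probe sets under every alternative, the replicate block included, and the unadjusted count rose from 2175 to 6146 with it. For shMsl1_A against shcontrol_A the count was 0 with the replicate block and ranged from 0 to 6771 with 1 array left out. The count of 6771, without shMsl1_A replicate 1, partly restates the replicate difference. Of 238 alternative list medians 178 stayed within the SD of the 3 pair medians, 57 moved by more and 3 reversed. The reversed ones were those of primitive and parietal endoderm (-0.02 centred, -0.017 quantile) and of cholesterol genes (-0.045 centred). Median centring had the largest effect, with 23 of the 34 lists moved and 9 the same. Medians whose pairs disagreed also changed sign, those of interferon genes (-0.064 centred, -0.036 quantile), of 2-cell-like genes (0.022 without the shMsl1_A pair) and of mesoderm genes (0.01 and 0.005 without the shMsl1_A or the shNsl1_B pair). The cause was not tested beyond the pairs, probe sets or limit that each alternative changes.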
